A study of Mus with 438 samples.

Results

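Single cone photoreceptors of control mice at postnatal day 60 (P60) were compared with those at postnatal day 21 (P21), within the superior and within the inferior retina, across the 10390 genes of the expression table. The members were chosen by their labels alone. They are 24 superior and 24 inferior cells at P21 and 26 superior and 21 inferior cells at P60, which makes 95 of the 429 cells of the series. All came from C57BL/6 mice labelled Trb2Cre-het:Ai6. These mice carry a Cre allele at Thrb, the thyroid hormone receptor beta gene, in the heterozygous state, and the Ai6 fluorescent reporter that Cre switches on, so the controls also have 1 modified Thrb allele. The Cre driver marks the cells in which it has been active, and only fluorescent cells were taken. Pieces of superior or inferior retina were treated briefly with papain, and glowing cells were drawn up 1 at a time with a suction pipette. Control cones of the same genotype labelled 2 month old (2m, 53 superior and 50 inferior cells) were a further adult collection and served as a yardstick.

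Cones are the photoreceptors of daylight and colour vision. Light striking an opsin activates the cone transducin, which activates a phosphodiesterase that lowers cyclic GMP and closes the channels of the outer segment, and guanylate cyclase with its calcium-sensing activators restores cyclic GMP. In the mouse, cones of the superior retina hold mostly M opsin and cones of the inferior retina mostly S opsin. The mouse eye has opened and the outer segments have grown by P21, so the interval to P60 covers the passage from a young functioning cone to an adult one.

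The labels name no animal, and each age and zone was therefore treated as 1 sample. No test was made, and a difference between ages cannot be told apart from a difference between collections. Values are read counts scaled to the size of the library (CPM), as means over cells unless a cell value is named, and levels of different genes are not compared because CPM is not scaled to gene length. The log2 ratio is that of mean CPM + 1 at P60 over mean CPM + 1 at P21. The median depth was 1.74e+06 and 1.84e+06 reads per cell at P21 and 1.97e+06 and 2.22e+06 at P60 in superior and inferior cones, and the shallowest cell had 897893 reads. P60 cells had more genes above 0, with medians of 4374 and 4068 against 3884.5 and 3742.5 at P21. The order was the same when every cell was thinned to 890000 reads (4031.5 and 3796 against 3604.5 and 3349). P60 superior libraries 03 and 14 correlated at r = 0.996 (Pearson, across genes). The next highest pair among all P21 and P60 libraries of both zones reached 0.405. The mean of libraries 03 and 14 was counted as 1 cell.

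No general shift in the means was seen. The median log2 ratio over all genes was 0.02 in superior and 0.00 in inferior cones. A gene was counted as higher or lower when its ratio reached 2-fold and, in the age with the higher level, its mean reached 10 CPM and 25% or more of the cells held over 1 CPM. By this rule 796 genes (7.66% of the table) were higher and 721 (6.94%) lower at P60 in superior cones. In inferior cones 813 (7.82%) were higher and 710 (6.83%) lower. Both zones gave the same direction for 100 higher genes (0.962%) and 106 lower genes (1.02%), and opposite directions for 151 genes (1.45%). A pair of adult collections of like age gives a yardstick, which shares the P60 cells. Between P60 and 2m controls, 263 genes (2.53%) were higher and 266 (2.56%) lower in both zones at P60, more than between P21 and P60. The 2m libraries were deeper, with medians of 1.26e+07 and 1.36e+07 reads per cell, and the part of depth in this yardstick was not tested.

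The genes counted in both zones were of low and middle abundance. Of the 4804 genes with a mean of 10 to 50 CPM, 2.5% met the rule in both zones, and of the 3112 genes at 50 to 200 CPM, 2.47% did. None of the 83 genes at 1000 CPM or more did so. Such low genes were read in a fraction of the cells, and a mean can rest on a few of them. A second measure, the mean over cells of log2(CPM + 1), put 64 of the 100 higher genes and 23 of the 106 lower genes past 2-fold, the same way in each zone. This second measure was itself displaced upward at P60, with a median over all genes of 0.15 in superior and 0.19 in inferior cones. Of the genes described below as meeting the rule in both zones, all but Rxrb, Med1, Bhlhe41 and Kdm5c also exceeded 2-fold by the second measure in both zones. For most of them this was a condition of being named, so it is no support for them.

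**Figure D1:**
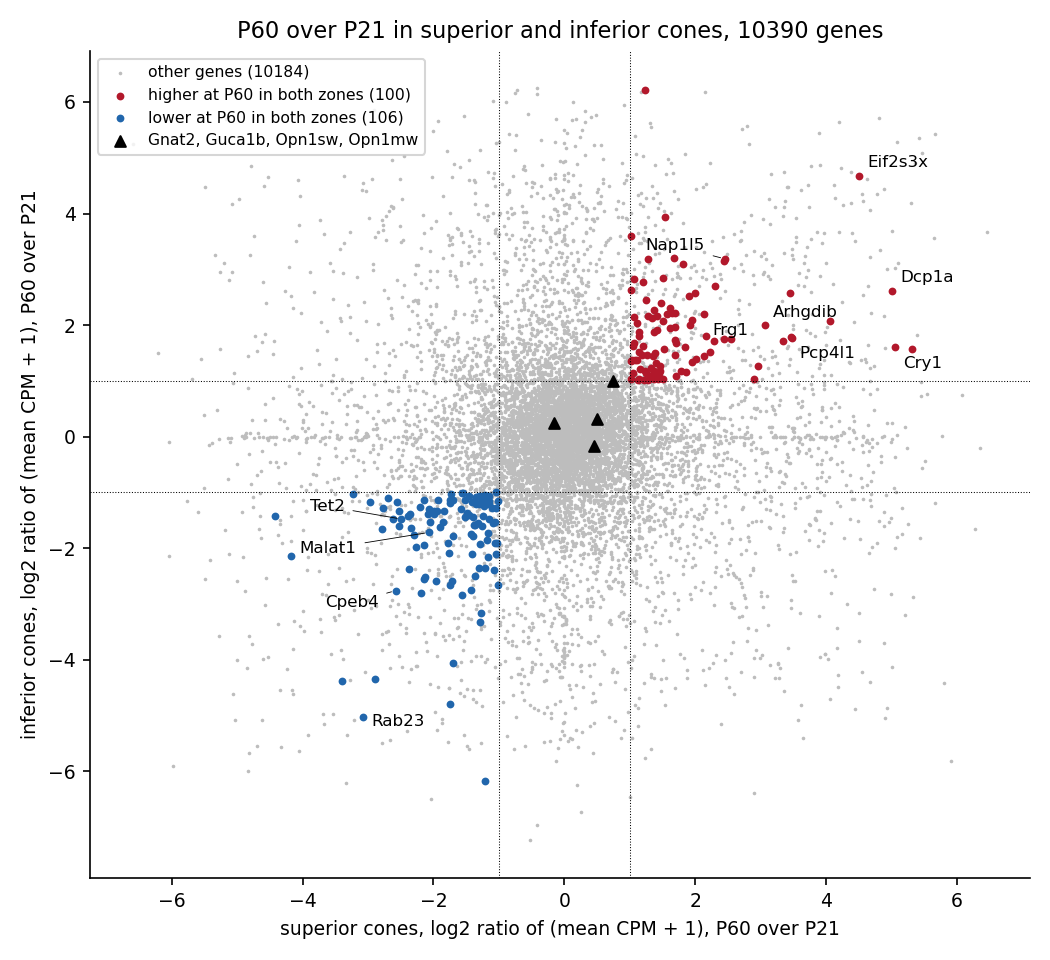
Each point is 1 of 10390 genes, placed by its log2 ratio of mean CPM + 1 at P60 over P21 in superior cones (x) and inferior cones (y). The 100 genes higher in both zones are red, the 106 lower in both zones are blue, and the triangles of Gnat2, Guca1b, Opn1sw and Opn1mw lie near the centre.

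The cone identity of the cells was checked with the cone transducin subunit. Gnat2, the alpha subunit of cone transducin (gene ID 14686, chr3:108086788-108101432 in GRCm38.p6), was read in every one of the 95 cells. In superior cones its lowest, median and highest values were 4458, 7296 and 10379 CPM at P21 and 5905, 10581 and 16068 CPM at P60. In inferior cones they were 4434, 7222 and 13986 CPM at P21 and 5060, 9330 and 15002 CPM at P60. The groups overlapped, and the P60 medians lay above those of P21 in both zones. The means were 7295 against 10288 CPM and 7628 against 9439 CPM, log2 ratios of 0.50 and 0.31. At 2m the means were 8625 and 8846 CPM, between the 2 ages. The sum of 12 cone markers per cell had medians of 43195 and 45692 CPM in superior and 109856 and 109020 CPM in inferior cones at P21 and P60.

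Guca1b encodes GCAP2, an activator of the photoreceptor guanylate cyclase that responds to falling calcium (gene ID 107477, chr17:47384694-47392967). In superior cones it ran from 0 through a median of 62.2 to 429 CPM at P21 and from 0 through 101.4 to 1438 CPM at P60. The share of superior cells above 1 CPM was 19 of 24 (79.2%) at P21 and 25 of 26 (96.2%) at P60. In inferior cones it ran from 0 through 279 to 1085 CPM at P21 and from 0 through 289 to 3199 CPM at P60. The inferior medians thus lay close together while the top of the range was higher at P60. The mean log2 ratios were 0.74 and 1.001, and only the inferior one met the size rule. Guca1b is also a rod gene, at a mean of 5778 CPM in the 29 rods of the series. The alpha subunit of rod transducin, Gnat1, a rod gene, exceeded 1000 CPM in 1 superior and 1 inferior cell at P21 and in 1 superior and 3 inferior cells at P60. The highest inferior values were 8756 CPM at P21 and 13004 CPM at P60, against a median of 44864 CPM in rods, and the cells above 1000 CPM held Gnat2 at 5060 CPM or more. Without these cells the inferior means of Guca1b were 327 CPM at P21 and 479 CPM at P60, a log2 ratio of 0.55 that is no longer 2-fold. The 2m means, at 103 and 148 CPM, were below those of P21 and P60 in the same zone.

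The means of both opsins differed by less than 2-fold between the ages. M opsin (Opn1mw, gene ID 14539) averaged 11413 CPM at P21 and 10221 CPM at P60 in superior cones, and 2293 and 2729 CPM in inferior cones. S opsin (Opn1sw, gene ID 12057) averaged 81034 and 72134 CPM in inferior cones. In superior cones S opsin was skewed among cells, with medians of 464 CPM at P21 and 1069 CPM at P60 below means of 6456 and 8870 CPM. A single P21 superior cell held 79328 CPM, and without the highest cell of each group the superior log2 ratio of S opsin was 1.2 in place of 0.46. The log2 ratios were −0.16 and 0.25 for M opsin and 0.46 and −0.17 for S opsin. By averaged logs the differences were −0.22 and 1.04 for M opsin and 1.03 and −0.15 for S opsin. Inferior M opsin and superior S opsin thus passed 2-fold by that measure. The inferior medians of M opsin were 2082 CPM at P21 and 2924 CPM at P60. Thrb, the receptor gene that carries the Cre allele, had means of 443 and 358 CPM in superior and 176 and 192 CPM in inferior cones. Its medians over cells went the same way in both zones, from 131 to 323 CPM and from 44.4 to 140 CPM. It was above 1 CPM in 23 of 24 and 18 of 24 cells at P21 and in 25 of 26 and 17 of 21 cells at P60. The superior mean and median of Thrb thus differed in direction.

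Of 23 genes of the cone phototransduction cascade, 22 were measured and all 22 passed the filter on level. None met the size rule in both zones in either direction, beside 0.962% higher and 1.02% lower of all genes. With such shares, 0 of 22 does not set the list apart. In superior cones 0 were higher and 1 lower, beside 7.66% and 6.94% of all genes. In inferior cones 1 was higher and 2 lower, beside 7.82% and 6.83%. Their median log2 ratios were −0.01 in superior and 0.12 in inferior cones, beside 0.02 and 0.00 for all genes. The ratios were above 0 in both zones for 8 of the 22 and below 0 in both zones for 7. Abundant genes met the rule less often, with 0.311% in both zones at 200 to 1000 CPM. The phosphodiesterase subunit Pde6c had ratios of 0.44 and 0.23, and the cyclase activator Guca1a had 0.29 and 0.20. The transducin beta subunit Gnb3 (0.05 and 0.11), cone arrestin Arr3 (−0.20 and −0.03) and recoverin Rcvrn (−0.01 and 0.12) were nearly level.

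Some members of the cascade had lower means at P60 in both zones. Rgs9, which speeds the shut-off of transducin, ran from 11.2 through 745 to 1522 CPM in superior cones at P21 and from 0 through 407 to 1180 CPM at P60. In inferior cones its median was 512 CPM at P21 and 169 CPM at P60. The P60 cells overlapped those of P21 and had the lower medians in both zones, and the means gave log2 ratios of −0.74 and −1.04. At 2m the Rgs9 means were 411 and 311 CPM, next to the 406 and 323 CPM of P60. The opsin kinase Grk1, which phosphorylates active opsin in mouse cones too, had ratios of −0.68 and −0.67. The guanylate cyclase Gucy2e averaged 205 against 101.1 CPM in superior and 158 against 88.2 CPM in inferior cones (−1.01 and −0.83). The modulatory potassium channel subunit Kcnv2 had −0.95 and −0.47, and the exchanger Slc24a2, which extrudes calcium from the outer segment, had −0.79 and −0.29. The channel subunit Cnga3 was level in superior cones (−0.12) and lower in inferior cones, at 288 CPM against 130 CPM (−1.14).

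**Figure D2:**
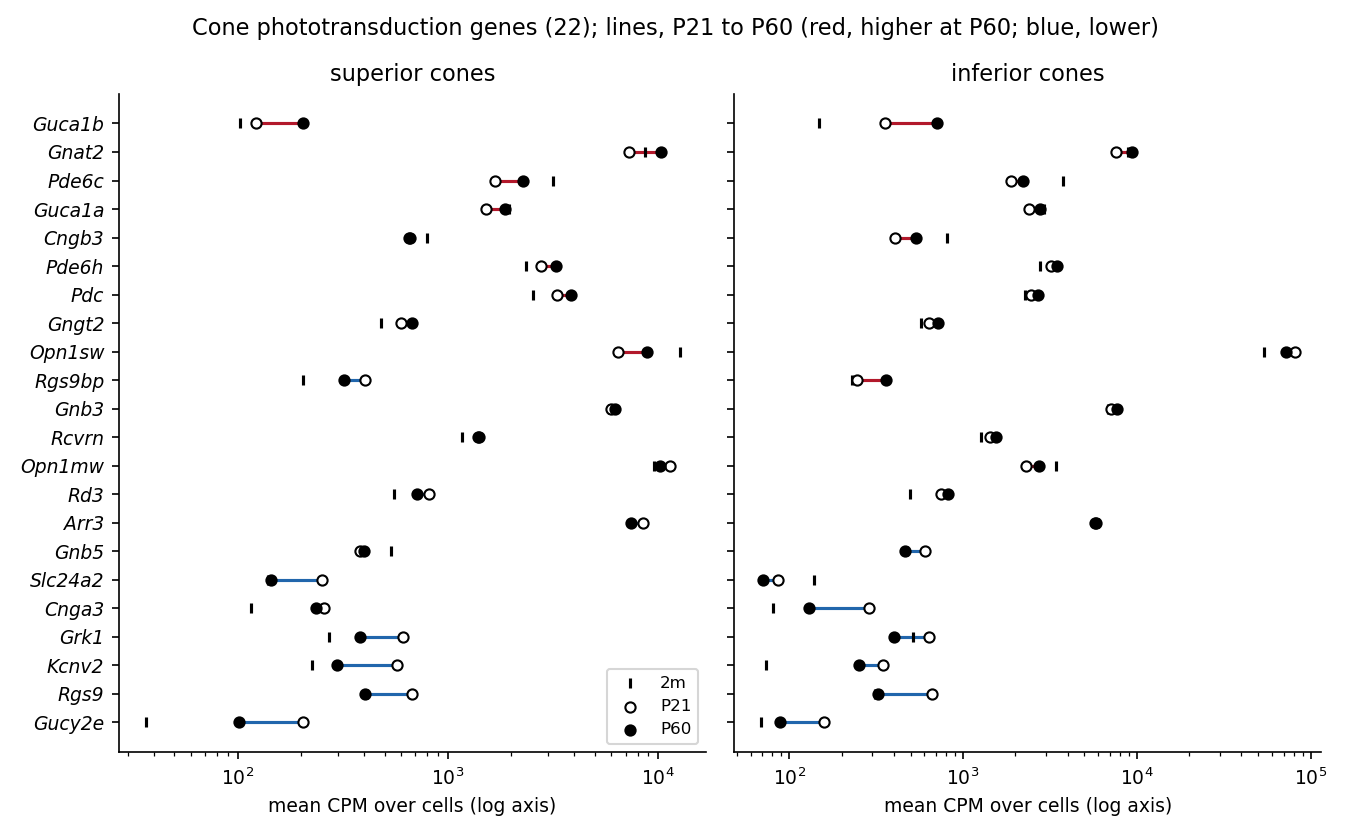
Mean CPM of the 22 measured cone phototransduction genes on a log axis, superior cones in 1 panel and inferior cones in the other, with P21 as open circles, P60 as filled circles and 2m as ticks. Most pairs of circles lie close together, and Rgs9, Grk1 and Gucy2e lie lower at P60 in both zones.

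Pcp4l1 was read in few cells at P21 and in most cells at P60. It is a relative of the small calmodulin-regulating protein PEP-19 (gene ID 66425, chr1:171173264-171196268). In superior cones it was above 1 CPM in 2 of 24 cells at P21 (8.33%, exact Clopper-Pearson 95% interval 1.03% to 27%) and in 16 of 26 at P60 (61.5%, 40.6% to 79.8%). In inferior cones it was above 1 CPM in 4 of 24 cells (16.7%) and in 16 of 21 (76.2%, 52.8% to 91.8%). These intervals cover the counting of cells only, not differences between animals. The median over cells was 0 in both zones at P21, and 132 and 105 CPM at P60. The means were 12.02 against 142 CPM and 39.7 against 139 CPM, or 11-fold and 3.44-fold on the scale of mean CPM + 1. At P8, Pcp4l1 averaged 3.98 and 0.03 CPM. At 2m its means were 45.3 and 131 CPM, with 15 of 53 and 15 of 50 cells above 1 CPM, a smaller share than at P60. Cells at or near 0 were thus the majority in the 2m collection and the minority at P60.

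Arhgdib, a regulator of small GTPases known mostly from blood cells (gene ID 11857, chr6:136923655-136941899), had a like pattern. It was above 1 CPM in 3 of 24 superior cells at P21 (12.5%) and 17 of 26 at P60 (65.4%, interval 44.3% to 82.8%), and in 4 of 24 and 11 of 21 inferior cells. The medians went from 0 in both zones to 96.0 and 78.6 CPM, and the means from 13.8 to 123 CPM and from 19.98 to 83.1 CPM. The P60 cells that lacked it overlapped the P21 cells. At 2m the means were 48.05 and 121 CPM. Microglia also express Arhgdib, and 1 of 8 microglia markers was measured, with a median of 0 in all 4 groups.

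**Figure D3:**
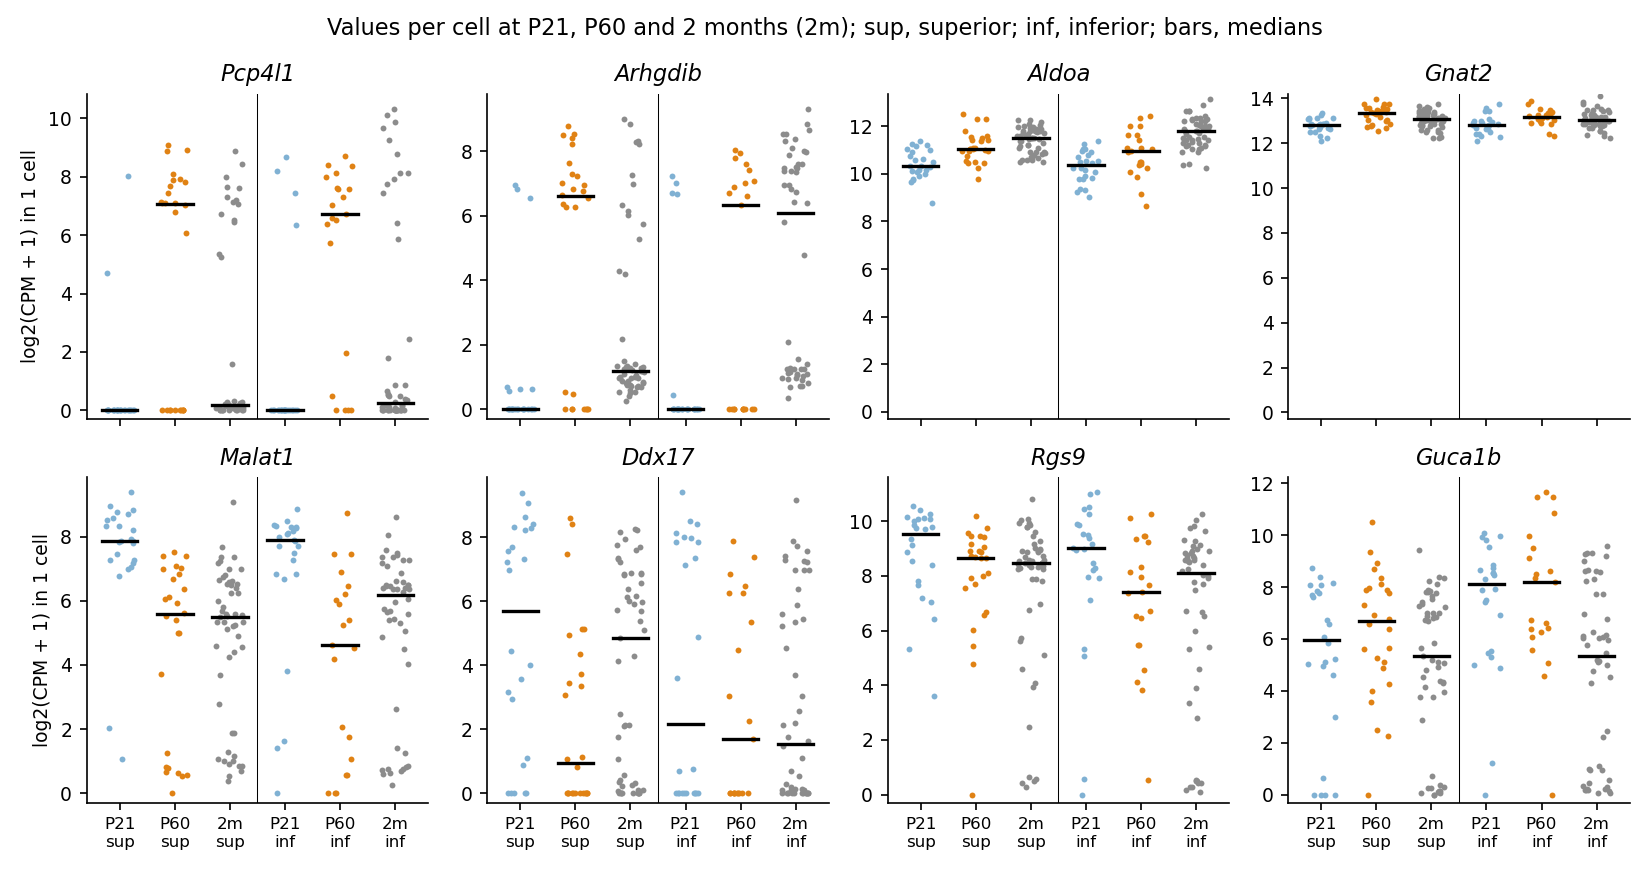
Values of single cells as log2(CPM + 1) for Pcp4l1, Arhgdib, Aldoa, Gnat2, Malat1, Ddx17, Rgs9 and Guca1b, in superior and inferior cones at P21, P60 and 2m, with bars at the medians. Pcp4l1 and Arhgdib have medians of 0 at P21 and cells spread from 0 upward at P60, while Gnat2 is a compact band in every group.

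Other genes were higher at P60 in both zones, most of them in a smaller share of cells than Pcp4l1. Frg1, a nuclear protein with a role in RNA processing, had medians of 0.27 and 0 CPM at P21 and of 19.4 and 52.3 CPM at P60. Its means were 6.02 against 29.8 CPM and 10.6 against 52.3 CPM, with 10 of 24 and 8 of 24 cells above 1 CPM at P21 and 16 of 26 and 14 of 21 at P60. At P8 it had averaged 66.5 and 31.6 CPM, so P21 was the low point. Phf20l1, a reader of methylated lysine, was also lowest at P21, with P8, P21 and P60 means of 92.6, 5.99 and 69.9 CPM in superior and 77.7, 25.2 and 84.9 CPM in inferior cones. Nup85, a subunit of the nuclear pore, went from 31.7 to 114 CPM and from 9.44 to 87.9 CPM between P21 and P60, and had been at 97.8 and 154 CPM at P8. Cldn12, a claudin, went from 27.97 to 111 CPM and from 23.8 to 105 CPM. The metalloreductase Steap2 went from 26.5 to 122 CPM and from 26.1 to 93.8 CPM. Nap1l5, an imprinted relative of a nucleosome assembly protein, went from 22.6 to 128 CPM and from 19.6 to 187 CPM, with medians of 0 in all 4 groups. The zinc finger gene Zfp946 went from 12.5 to 72.2 CPM and from 12.7 to 121 CPM, and 4930431P19Rik from 12 to 69.7 CPM and from 27.9 to 96.2 CPM. At 2m 4930431P19Rik stood at 24.4 and 14.2 CPM, the inferior mean below that of P21. The 2m means of Frg1, Nup85, Cldn12 and Nap1l5 lay above those of P21 in both zones. For most of these genes a larger minority of cells held reads at P60.

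Dcp1a, which acts in removing the cap of messenger RNA, was also far apart between the ages. It was at 0.51 and 11.03 CPM at P21 and 47.5 and 72.9 CPM at P60, in 7 of 26 and 7 of 21 cells. The 2m means of Dcp1a were 3.37 and 5.20 CPM, near those of P21 and not those of P60. Eif2s3x, an X-linked subunit of a translation initiation factor, was at 1.65 and 1.15 CPM at P21 and 59.2 and 54.1 CPM at P60 (log2 ratios 4.50 and 4.68). It had averaged 4.62 and 4.40 CPM at P2 and 4.18 and 3.51 CPM at P8, and stood at 129 and 126 CPM at 2m. It has a near-identical partner on the Y chromosome, and how reads were divided between the pair is not given in the sources used here. Xist, the transcript of the inactive X chromosome, was 0 in every P60 cell and at most 0.417 CPM in any P21 cell, so the cells compared did not differ in it. At 2m, 15 of 53 and 18 of 50 cells held Xist above 1 CPM.

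Among the genes lower at P60, the long noncoding RNA Malat1 was read in nearly every P21 cell (gene ID 72289, chr19:5795690-5802672). Malat1 is a nuclear RNA of speckles, where splicing factors gather. In superior cones its lowest, median and highest values were 1.10, 235 and 670 CPM at P21 and 0, 46.8 and 183 CPM at P60. In inferior cones they were 0, 236 and 471 CPM at P21 and 0, 23.7 and 429 CPM at P60. The P60 medians lay at a small part of those of P21 in both zones, and the ranges overlapped. It was above 1 CPM in 24 of 24 and 23 of 24 cells at P21, and in 19 of 26 (73.1%) and 16 of 21 at P60. The means were 264 against 62.2 CPM and 211 against 63.5 CPM, log2 ratios of −2.07 and −1.72. P21 was the high point of this RNA, since P8 had means of 61.3 and 47.9 CPM and 2m had 64.3 and 78.2 CPM. Neat1, another nuclear noncoding RNA, chosen for comparison after its values were seen, went from 30.3 to 43.2 CPM in superior and from 40.4 to 6.75 CPM in inferior cones.

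Among the named genes, proteins that handle RNA were found in both directions. They were grouped after the values were seen, and no list of such genes was counted. Frg1 and Dcp1a were higher, and the next 3 genes were lower. Ddx17, a helicase that works in splicing and transcription, had means of 156 against 41.02 CPM and 124 against 39.3 CPM. The Ddx17 medians were 72.6 CPM at P21 and 0.93 CPM at P60 in superior cones, and 5.84 and 2.22 CPM in inferior cones. Cpeb4, which binds the tails of messenger RNAs and regulates their translation, averaged 117 and 91.8 CPM at P21 and 18.7 and 12.7 CPM at P60. At 2m Cpeb4 stood at 37.4 and 46.9 CPM. Snupn, the import adaptor of spliceosomal RNAs, went from 40.02 to 6.91 CPM and from 35.7 to 6.09 CPM, with a 2m mean of 50.3 CPM in superior cones above the P21 level.

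The other named genes that were lower in both zones have varied roles. Rab23, a small GTPase that restrains Hedgehog signalling at the cilium, was at 47.4 and 38.6 CPM at P21 and at 4.73 and 0.21 CPM at P60. It was above 1 CPM in 7 of 24 cells of each zone at P21 and in 2 of 26 and 1 of 21 cells at P60, and its 2m means were 6.74 and 7.68 CPM. Osbpl6, an oxysterol-binding relative, went from 110 to 24.4 CPM and from 104 to 17.4 CPM. Slc9a7, a sodium and proton exchanger of the Golgi, went from 72.2 to 17.8 CPM and from 97.4 to 15.4 CPM. Dst, a giant linker of the cytoskeleton, went from 78.2 to 15.4 CPM and from 125 to 31.1 CPM, and stood at 121 CPM in superior 2m cones, so the 2m collection did not share its low P60 level. Mtx1, a protein of mitochondrial import, went from 68.5 to 14.8 CPM and from 55.3 to 13.6 CPM. BC005537, of unassigned function, went from 110 to 36.7 CPM and from 77.4 to 9.98 CPM. At 2m BC005537 stood at 63.2 and 109.5 CPM, the inferior mean above that of P21.

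Writers, readers and erasers of chromatin were examined as a list of 25 measured genes. In superior cones 0 were higher and 3 lower, in inferior cones 2 were higher and 3 lower, and 2 were lower in both zones (Tet2 and Kdm5c). The 2 of 25 stand beside the 1.02% of all genes that were lower in both zones. For a single zone the shares of all genes were 7.66% higher and 6.94% lower in superior, and 7.82% and 6.83% in inferior cones. The list medians were 0.05 and −0.02, beside 0.02 and 0.00 for all genes, so its middle was level. Tet2, which oxidises methylated cytosine (gene ID 214133, chr3:133463677-133545136), went from 76.9 to 12.9 CPM in superior and from 149 to 52.7 CPM in inferior cones, and was at 16.6 and 57.6 CPM at 2m. Its relative Tet3 had log2 ratios of −2.29 and −0.98. Kdm5c, a histone demethylase, went from 50.97 to 23.04 CPM and from 50.4 to 20.3 CPM, but in superior cones it stayed under 2-fold by averaged logs. Setd5, a chromatin protein outside that list, went from 62.7 to 13.4 CPM and from 45.5 to 6.96 CPM.

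The thyroid hormone pathway was of interest because the receptor beta controls opsin choice in cones. Of its 14 measured genes, 1 was higher and 2 lower in superior cones, and 3 were higher and 3 lower in inferior cones. The shares over all genes were 7.66% higher and 6.94% lower in superior, and 7.82% and 6.83% in inferior cones. Med1, the Mediator subunit that docks nuclear receptors, was lower in both zones, at 69.7 against 19.8 CPM and 49.6 against 10.9 CPM. Med1 had stood at 43.02 and 76.1 CPM at P2 and at 13 and 9.71 CPM at P8, and was at 16.5 and 11.4 CPM at 2m, so its P21 level stood above both neighbouring ages. Rxrb, a retinoid X receptor that pairs with the thyroid hormone receptor, was higher in both zones, at 39.4 against 82.7 CPM and 13.2 against 43.1 CPM. The hormone-induced genes gave no common direction. Klf9 had log2 ratios of −0.46 and 0.08, Hr had −1.42 and 1.24, and Dbp had −0.29 and 1.16. The list medians were −0.30 and −0.01.

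Clock genes overlap that group through Dbp. Of 14 measured, 2 were higher and 3 lower in superior cones, and 3 were higher and 1 lower in inferior cones. Among all genes, 7.66% were higher and 6.94% lower in superior cones, and 7.82% and 6.83% in inferior cones. Cry1, a repressor of the clock (gene ID 12952, chr10:85131700-85185054), was above 1 CPM in 1 of 24 superior and 3 of 24 inferior cells at P21 and in 10 of 26 and 7 of 21 at P60. Its means went from 2.43 to 112 CPM and from 23.96 to 74.8 CPM. Cry1 had been at 64.6 and 64.6 CPM at P8 and was at 135 and 73.6 CPM at 2m, so P21 was its low point. The repressor Bhlhe41 was lower in both zones, at 28.4 against 10 CPM and 39.2 against 4.99 CPM. The activator Arntl had ratios of 1.24 and 0.69, and Hlf had −2.37 and −0.98. The hour of the day at which cells were taken is not given in the sources used here, and its part in these values was not tested.

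Photoreceptor transcription factors had no common direction. Of 16 measured, 1 was higher and 1 lower in superior cones, and 0 were higher and 1 lower in inferior cones. The shares of all genes were 7.66% higher and 6.94% lower in superior, and 7.82% and 6.83% in inferior cones. Crx, which drives photoreceptor genes in rods and cones, was read in every cell and had means of 1990 against 1390 CPM and 1519 against 1233 CPM (log2 ratios −0.52 and −0.30). Rxrg, a cone retinoid receptor, was level in superior cones (−0.27) and lower in inferior cones, at 264 against 108 CPM (−1.29). Prdm1, a repressor that steers photoreceptor precursors, had 1.94 in superior and −1.30 in inferior cones. Nr2f2 (gene ID 11819, chr7:70351946-70366746), a nuclear receptor of the dorsal retina, was above 1 CPM at P21 and P60 in superior cones alone. It was above 1 CPM in 10 of 24 superior cells at P21 and 4 of 26 at P60, with means of 52.5 and 1.32 CPM. In inferior cones Nr2f2 was at 0.04 CPM at P21 and 0 at P60. The superior mean was 23.05 CPM at 2m, between the 2 ages.

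Genes of fuel use were counted beside all genes, of which 7.66% were higher and 6.94% lower in superior cones. In inferior cones 7.82% of all genes were higher and 6.83% lower. Of 20 measured glycolysis genes, 0 were higher and 1 lower in superior cones and 2 higher and 0 lower in inferior cones. Their median ratios were 0.15 and 0.38, with 12 genes above 0 in both zones and 3 below. Aldoa, the main aldolase of muscle and photoreceptors, was read in every cell. Its lowest, median and highest values in superior cones were 440, 1295 and 2647 CPM at P21 and 882, 2120 and 5911 CPM at P60. In inferior cones they were 520, 1317 and 2682 CPM at P21 and 397, 2012 and 5491 CPM at P60. Both P60 medians lay above those of P21 with overlapping ranges, and the ratios of the means were 0.76 and 0.73. The 2m means, 2906 and 3711 CPM, were higher still. Aldoc, the aldolase of brain, was level in superior cones at 437 and 491 CPM and higher in inferior cones, at 106 against 410 CPM, with 11 of 24 and 20 of 21 inferior cells above 1 CPM. The phosphofructokinase Pfkp had ratios of 0.71 and 1.47. The glucose transporter Slc2a1 had −1.12 in superior and 0.27 in inferior cones.

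None of the 48 nuclear genes of the respiratory chain met the size rule in either zone. Of all genes, 7.66% were higher and 6.94% lower in superior cones, and 7.82% and 6.83% in inferior cones. The rule was met less often by abundant genes. At 200 to 1000 CPM, 3.42% met it in superior and 5.75% in inferior cones, in either direction. Their medians were 0.15 and 0.15, with 26 above 0 in both zones and 6 below. The 6 measured transcripts of the mitochondrial genome had medians of 0.32 and 0.48 and none met the rule. COX2 averaged 512 against 770 CPM and 429 against 746 CPM. Acsl3, which activates long-chain fatty acids, had ratios of 0.64 and 0.70 and was read in nearly every cell.

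A list of 4 genes with a late onset in cones, chosen with earlier results of these data known, gave 0 calls in superior and 2 higher in inferior cones. Over all genes, 7.66% were higher in superior and 7.82% in inferior cones. Cds1, which makes the lipid precursor of phosphatidylinositol, was above 1 CPM in 16 of 24 superior cells at P21 and 23 of 26 at P60, with medians of 225 and 384 CPM. Its ratios were 0.87 and 0.60, and the 2m means were 370 and 209 CPM. Car8, a carbonic anhydrase relative that binds the inositol trisphosphate receptor, was above 1 CPM in 7 of 24 superior cells at P21 (29.2%) and 18 of 26 at P60 (69.2%). In inferior cones Car8 was above 1 CPM in 6 of 24 and 12 of 21 cells, and the ratios were 0.77 and 1.08. Pdzph1 was at 139 and 152 CPM in superior and 52.1 and 137 CPM in inferior cones, from 0 in both zones at P8. The chemokine Ccl9 was level in superior cones (−0.03) and had a ratio of −0.57 in inferior cones.

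Genes of the outer segment and the synapse were also counted by the size rule. Over all genes, 7.66% were higher and 6.94% lower in superior cones, and 7.82% and 6.83% in inferior cones. Of 28 outer segment and cilium genes, 1 was higher and 3 lower in superior cones and 0 higher and 4 lower in inferior cones, with medians of −0.16 and −0.17, and 12 were below 0 in both zones and 6 above. Rom1, a tetraspanin of the disc rim, went against the list, at 1085 against 1673 CPM and 1004 against 1679 CPM (0.62 and 0.74), but stood at 806 and 680 CPM at 2m. Rp1, a microtubule protein of the axoneme, had −0.30 in superior and −1.47 in inferior cones. Fscn2, an actin bundler of photoreceptors, had 1.196 and 0.77. Of 28 synaptic terminal genes, 1 met the rule, the calcium channel subunit Cacnb2, which was lower in inferior cones (−1.14) and had 0.57 in superior cones. The list medians were −0.05 and −0.14, with 11 genes below 0 in both zones and 5 above.

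Lists of cell maintenance were set beside all genes, of which 7.66% were higher and 6.94% lower in superior cones. The inferior shares of all genes were 7.82% higher and 6.83% lower. Of 34 ubiquitin and proteasome genes, 2 were higher in superior cones, and 2 were higher and 2 lower in inferior cones, with medians of 0.21 and 0.16. None of 17 heat shock genes met the rule in either zone. Among 15 stress genes 2 were lower in superior and 1 was higher in inferior cones, and among 22 antioxidant genes 1 was lower in superior and 1 higher in inferior cones. Of 13 immature neuron genes, 1 was higher and 2 lower in superior cones and none met the rule in inferior cones.

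Markers of other cells were read in the same groups. Their counts stand beside 7.66% higher and 6.94% lower of all genes in superior cones, and 7.82% and 6.83% in inferior cones. The 12 measured of 14 rod markers gave 0 higher and 2 lower in superior cones and 2 higher and 0 lower in inferior cones, with medians of −0.31 and 0.79. The inferior median was 0.03 without the cells above 1000 CPM of Gnat1. Their sum per cell ran from 6991 through 12628 to 15712 CPM at P21 and from 5990 through 11172 to 20369 CPM at P60 in superior cones. In inferior cones it ran from 8449 through 16202 to 33500 CPM and from 11606 through 16178 to 42358 CPM. The medians of the sums were close, and the inferior maximum was higher at P60. Without the 6 cells above 1000 CPM of Gnat1, 117 genes were higher and 112 lower at P60 in both zones, of which 81 and 87 were among those counted with them. Dst then had a superior ratio of −1.42 in place of −2.27. Of the 7 measured of 10 Müller glia markers 1 was lower in superior cones, Apoe, at 207 against 35.1 CPM, and the sums had medians of 701 and 574 CPM at P21 and 455 and 592 CPM at P60. Of 3 bipolar markers 1 was higher and 1 lower in superior cones, and their sums had medians of at most 13.5 CPM. Of 2 amacrine markers 1 was lower in superior cones, where the sums had medians of 90.8 CPM at P21 and 16.5 CPM at P60, against 2.48 and 38.1 CPM in inferior cones. The measured markers of horizontal, ganglion, microglial and endothelial cells had summed medians of 0 in all 4 groups, and no pigment epithelium or astrocyte marker was measured. The part of RNA from other cells in the results was not tested beyond the values given here.

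Some genes met the rule in 1 zone and were level in the other, under 0.5 in size by both measures. There were 146 higher and 83 lower such genes in superior cones and 157 higher and 80 lower in inferior cones, and the difference between zones was not tested. Zfp512b, a zinc finger protein, was above 1 CPM in superior cones in 3 of 24 cells at P21 and 22 of 26 (84.6%) at P60, with means of 0.64 and 42.6 CPM. Its inferior means were 8.89 and 12.8 CPM. Cand2, a regulator of cullin ligases, was at 0 in all 24 superior cells at P21, which by the limit of 3 cells allows up to 12.5% of cells with a read of it, and averaged 81.0 CPM in 8 positive cells of 26 at P60. Myocd, a coactivator of smooth muscle genes, averaged 64.7 CPM in 7 positive cells of 24 at P21 and was at 0 in all 26 superior cells at P60, for which the same limit is 11.5%. In inferior cones Fyn, a Src-family kinase, was at 0 in 24 cells at P21 and averaged 49.1 CPM in 6 positive cells of 21 at P60. Cox11, a copper chaperone of cytochrome oxidase, was at 0.04 CPM and then 31.2 CPM, in 6 of 21 cells. Ficd, an enzyme that modifies the chaperone BiP, went from 123 CPM in 6 positive cells of 24 to 0 in all 21 inferior cells, for which the same limit is 14.3%. These limits concern cells with reads, not cells that express the gene. Apart from Zfp512b, the genes named here were positive in few cells of the higher group.

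The other collections show where P21 and P60 stood for the genes counted in both zones. The P21 and P60 values chose these sets, while P2, P8 and 2m did not. In superior cones the median levels of the 100 higher genes were 46.3 CPM at P2, 40.6 at P8, 18.3 at P21, 60.3 at P60 and 43.96 at 2m. In inferior cones they were 38.1, 36.9, 15.3, 56.2 and 36.3 CPM in the same order. The P21 value is low and the P60 value high by the choice of the set. The 106 lower genes had superior medians of 47.4 CPM at P2, 39.7 at P8, 68.4 at P21, 18.5 at P60 and 27.99 at 2m, and inferior medians of 48.02, 40.7, 57.9, 16.6 and 29.2 CPM. Its high P21 value and low P60 value are likewise fixed by the choice. All genes together had medians of 33.6 and 31.2 CPM at P21, 34.1 and 30.9 CPM at P60 and 31.01 and 28.4 CPM at 2m. All these medians are descriptions and were not tested.

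**Figure D4:**
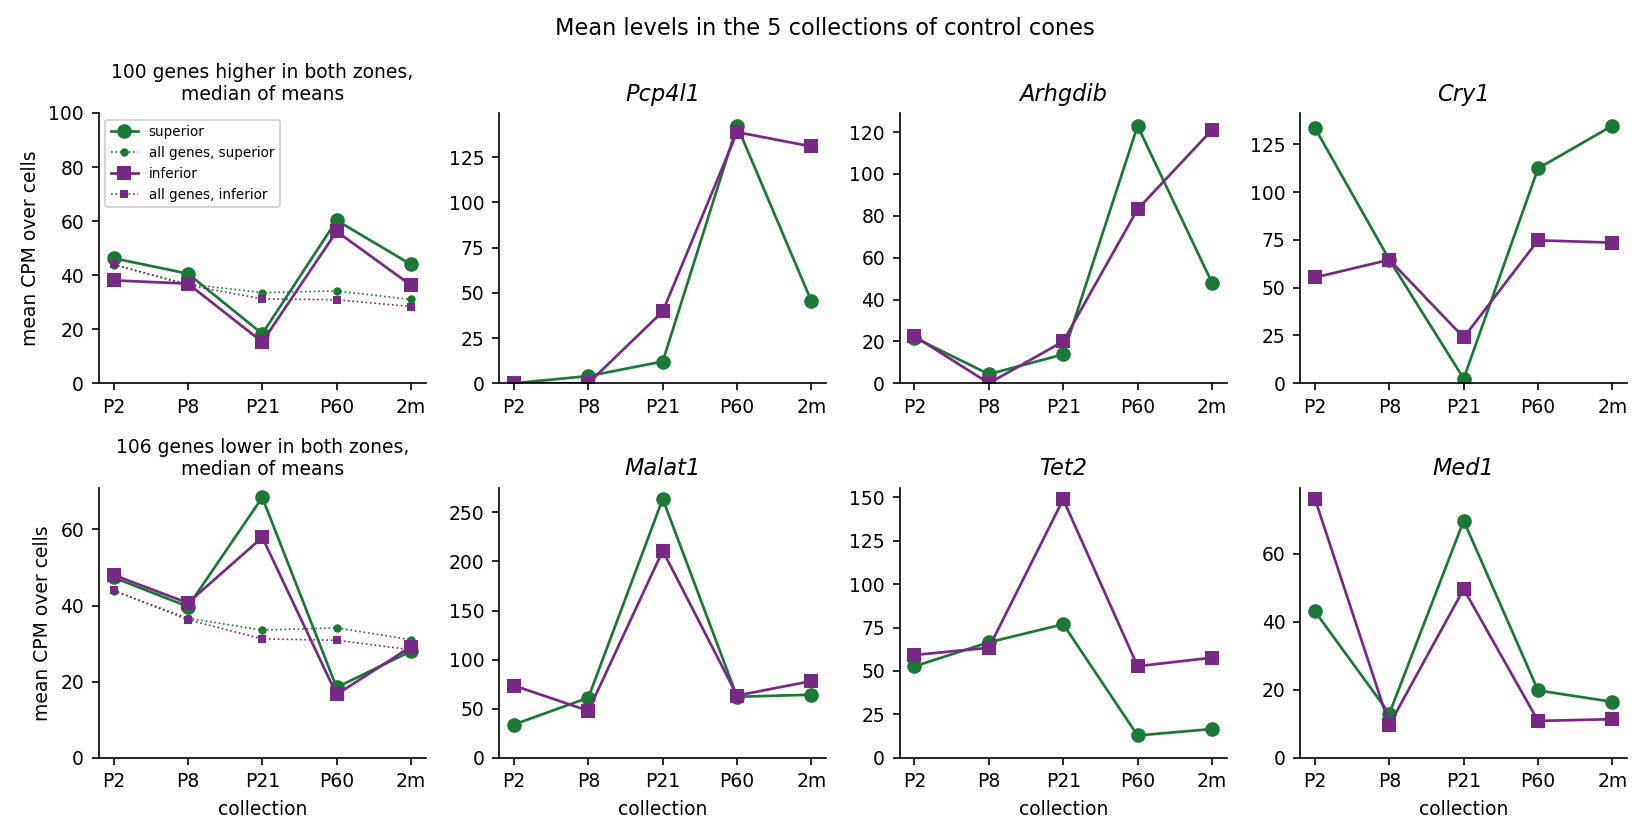
Mean CPM over the collections P2, P8, P21, P60 and 2m (linear axes from 0), with a line for superior and a line for inferior cones, for the medians of the 100 higher and 106 lower genes with all genes as dotted lines, and for Pcp4l1, Arhgdib, Cry1, Malat1, Tet2 and Med1. The higher set is at 18.3 and 15.3 CPM at P21 and the lower set at 68.4 and 57.9 CPM, values that chose the sets.

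The lower genes were longer on the chromosome than the higher genes. By RefSeq gene intervals, the median span was 45.9 kb for 105 of the 106 lower genes and 19.01 kb for 97 of the 100 higher genes, beside 22.3 kb for 5278 of the 5369 genes that could pass the filter on level in both zones. This property was examined after the values were seen. In the shortest decile of those genes, with a median span of 2621 bases, 11 were higher and 2 lower in both zones, and the median ratios were 0.20 and 0.18. In the longest decile, with a median span of 163164 bases, 4 were higher and 21 lower, and the median ratios were −0.22 and −0.05. The step between the shortest and the longest decile was thus larger in superior cones. From P8 to P21, a comparison that shares the P21 cells, the shortest decile had −0.46 and −0.33 and the longest 0.31 and 0.04. Between P60 and 2m, which shares the P60 cells, the shortest decile had 0.35 and 0.33 and the longest 0.17 and 0.24.

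**Figure D5:**
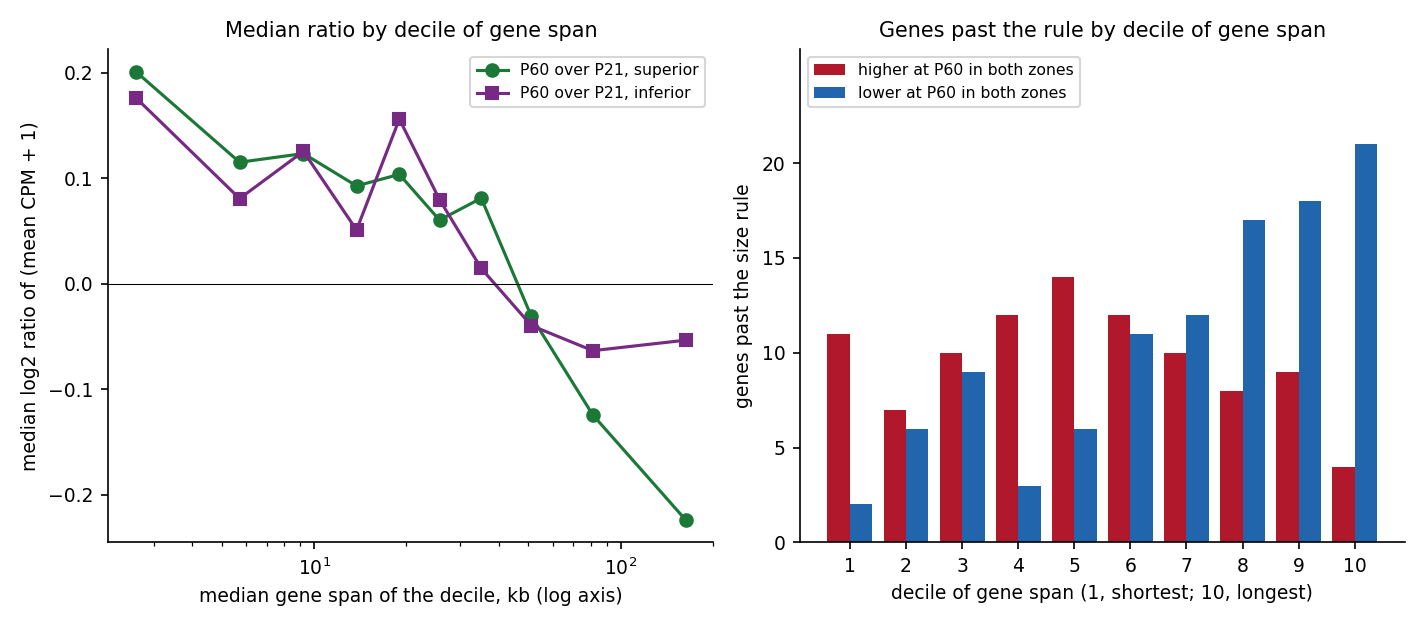
Genes that could pass the filter on level, in deciles of gene span from shortest to longest. Left, the median log2 ratio of P60 over P21 in superior and inferior cones; right, the number of genes higher and lower in both zones, where the longest decile holds 21 lower and 4 higher genes.

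Thyroid hormone receptor binding was mapped in E18 retina by ChAP-seq, which pulls down a tagged receptor with its DNA, and receptor-dependent open chromatin in P30 cones by ATAC-seq. The deposited lists held 4590 bound regions, 5049 regions called induced and 4072 called suppressed, and how the latter names were decided is not given in the sources used here. A bound region lay within 50 kb of 30 of the 97 placed higher genes (30.9%) and 49 of the 105 placed lower genes (46.7%), beside 42.4% of the genes that could pass the filter. Induced open regions lay within that distance of 36.1% and 49.5%, beside 38.3%, and suppressed ones of 11.3% and 10.5%, beside 12.5%. The lower genes were also the longer ones, and the part of gene span in these shares was not tested. Tet2 held both kinds inside the gene, a bound region at chr3:133534107-133534406 and an induced open region at chr3:133534055-133534508 that contains it. Cldn12 had a bound region at chr5:5514344-5514643. Pcp4l1 had none of the 3 kinds within 50 kb, and Arhgdib had 9 induced regions.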

How the data were processed

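Single-cone libraries were made with SMART-Seq v4 and ThruPLEX kits, per the labels' protocols. Per the submitters' processing notes, bcl2fastq 2, STAR 2.7.3a and GRCm38/mm10 were used for reads and MACS2 2.2.7.1 for regions; a counting tool and a gene filter are not given in those sources. Expression was deposited by the authors in CPM. The sum per library was between 80.0% and 93.0% of what CPM adds up to, so further genes had been dropped once scaled. The lowest maximum of any gene in the table was 34.4 CPM. Whole reads were recovered from 100% of the values checked, those up to 500 reads (tolerance 0.1 reads). The receptor-bound regions were deposited with a p-value column, whether p, q or FDR not stated, which was not used.

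P60 superior libraries 03 and 14 were averaged as 1 cell. Ratios used mean CPM with a pseudocount of 1. No count test was run, since each age and zone is 1 sample, and the size rule is a description. Shares carry exact Clopper-Pearson 95% intervals, and a share of 0 the limit of 3 cells; both cover counting error only, as reads had no molecular identifiers. Gene intervals came from RefSeq GRCm38.p6 (10149 genes matched by ID, 10143 placed). Named genes were the opsins, Thrb, Guca1b and Gnat2, list members past the rule in both zones, the 12 genes per direction with the largest smaller-of-both-zones ratio that passed both measures, and 5 genes per zone and direction level in the other zone. The text describes some of the last kind, and further list members. The members, the 25 gene lists, the 11 marker lists and the rules were chosen with earlier results of these data known. Some list genes are not reported here and were left out of the lists. The 10 other settings covered the averaging, pseudocount, filter, scaling, depth and single cells; a run without cells above 1000 CPM of the rod gene Gnat1 was added after the data were seen. Python 3.11.15, numpy 2.4.6, pandas 2.3.3 and scipy 1.17.1 were used.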

Additional observations from a re-analysis of the deposited data

Results flagged for a closer look

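For 4 genes of the lists the size rule, with its filter on level and cells, was met in opposite directions in the 2 zones, and the difference between zones was not tested. The clock repressor Cry2 had a log2 ratio of −1.36 in superior cones (257 against 99.9 CPM) and 2.08 in inferior cones (26.4 against 115 CPM). The thyroid hormone target Hr, a histone demethylase of skin and brain, had −1.42 and 1.24. The fatty acid desaturase Scd2 had −1.86 and 1.05, from 159 to 43.1 CPM and from 32.2 to 67.6 CPM. Gnat1, the rod transducin subunit, had −1.32 and 1.75, with 3 of the 6 cells above 1000 CPM of it among P60 inferior cones. Over all genes 151 (1.45%) met the size rule in opposite directions.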

How the results depend on the processing

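No paired analysis was possible because the cells of a group carry running numbers that tie no cell to a cell of the other age. The counts depended on the averaging and the filter. With averaged log2(CPM + 1), 438 genes were higher and 62 lower in both zones, 1490 were higher in superior and 1625 in inferior cones, and 494 were higher at P60 than at 2m. With a pseudocount of 10 CPM, 52 were higher and 59 lower in both zones, and 151 were higher than at 2m. Without a filter on low values, 461 and 477 were higher and lower in both zones, 1847 and 1693 in superior cones, 1941 and 1933 in inferior cones, and 622 and 735 against 2m. With at least 50 CPM and 50% of cells, 19 and 14 were higher and lower in both zones, 212 and 152 in superior cones, 207 and 144 in inferior cones, and 84 and 102 against 2m. Without the highest cell of each group, 167 were higher in both zones, of which 80 were among the 100. In the same setting 100 were lower in both zones, of which 63 were among the 106. The other settings, among them thinned reads, summed reads, size factors and libraries 03 and 14 as 2 cells, moved no such count by 1.5 times. No named gene's ratio that met the size rule changed sign under the settings run. For averaged logs this was fixed for most named genes, which were chosen by the same direction in both measures. Ratios that did not meet the size rule could change sign, such as that of Thrb in superior cones, −0.31 by means and 0.63 by averaged logs. Depth limits genes near 10 CPM, and with 1 sample per age and zone neither animals nor collection days can be separated from age.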

Other observations

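Genes of the ribosome and related families were grouped by symbol after the values were seen. The 75 cytosolic ribosomal protein genes had median log2 ratios of P60 over P21 of 0.31 in superior and 0.45 in inferior cones, beside 0.02 and 0.00 for all genes. Of these 75, 39 were above 0 in both zones and 7 below, and 2 met the size rule as higher in both zones. The 77 mitochondrial ribosomal protein genes had medians of 0.19 and 0.13, with 34 above 0 in both zones and 12 below. Of all 10390 genes, 2813 were above 0 in both zones and 2574 below. The 37 tRNA synthetase genes, which load amino acids onto their tRNAs, had medians of −0.23 and 0.36, with 11 above 0 in both zones and 9 below. Sars, Farsb and Tars2 were higher in both zones and Lars was lower. The 301 zinc finger genes named Zfp had medians of 0.11 and 0.09. By averaged logs the median over all genes was 0.15 and 0.19, and that of the cytosolic ribosomal protein genes was 0.31 and 0.39.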
